A study of Mus musculus with 6 samples.

Results

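The 8 genes Lyve1, Folr2, Vsig4, Fxyd2, Aqp1, Cbr2, Sepp1 and Maf were followed through single-cell RNA sequencing (scRNA-Seq) libraries of inflamed mouse synovium. They are 8 of the 20394 genes in the table and were chosen by their measured levels in macrophages of these same libraries, so their height in macrophages is given below as a description and carries no test. Every sample came from male C57BL/6 mice, 8 weeks of age, with antigen-induced arthritis (AIA), a model in which joint inflammation is raised by an antigen to which the mice were immunised beforehand. All mice were immunised with 10 μg of methylated bovine serum albumin (mBSA) in complete Freund's adjuvant and given 100 μg of mBSA into the joint on day 21. The 2 PBS samples came from mice treated with the vehicle and the 4 PEPITEM samples from mice treated with 300 μg of the peptide PEPITEM from day 21, and synovium was taken on day 3 after the challenge. CD45+ cells, that is, leukocytes, were sorted from the digested tissue before library preparation. The barcodes carry a library number from 1 to 6, but nothing ties a number to a sample or a treatment. The 6 libraries are therefore libraries of unknown treatment, PBS and PEPITEM were not compared, and values are given pooled and as the lowest, median and highest library.

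Synovial macrophages that live in the healthy joint line the joint cavity as a barrier or lie in the tissue beneath it, and they clear debris and dead cells. In arthritis they share the joint with macrophages that arise from blood monocytes, and scavenger and complement receptors such as those studied here are used to tell resident cells apart from the newcomers. Of the 8 genes, Lyve1 (a hyaluronan receptor), Folr2 (folate receptor beta) and Vsig4 (a complement receptor of the immunoglobulin superfamily) encode surface receptors. Fxyd2 encodes a regulatory subunit of the sodium pump and Aqp1 a water channel. Cbr2 encodes a carbonyl reductase and Sepp1 (also called Selenop) the secreted selenium carrier selenoprotein P, while Maf encodes the transcription factor c-Maf.

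The genes lie on different chromosomes of GRCm38, except that Lyve1 (chr7:110850607-110863239) and Folr2 (chr7:101839988-101857194) are both on the minus strand of chromosome 7. Vsig4 lies at chrX:96247203-96293438 on the minus strand, Fxyd2 at chr9:45399669-45410278 on the plus strand and Aqp1 at chr6:55336432-55348555 on the plus strand. Cbr2 lies at chr11:120729489-120732114 on the minus strand, Sepp1 at chr15:3268547-3280508 on the plus strand and Maf at chr8:115682942-115707794 on the minus strand. Folr2, Sepp1 and Maf overlap genes on the opposite strand, which the stranded 3′ chemistry separates. The 250 bases before the start site, from RefSeq with build GRCm38.p6, are shown for 4 of the genes so that their letters can be set beside the shared pattern of detection described below. They were searched on both strands for TGCTGA, the core of the element bound by Maf proteins, for GAGGAA, a core bound by the macrophage factor PU.1, and for the TATA box TATAAA, and a match is in capitals. The Folr2 stretch lies at chr7:101857191-101857440, that of Vsig4 at chrX:96293439-96293688 and that of Cbr2 at chr11:120732022-120732271, all on the minus strand, and that of Aqp1 at chr6:55336049-55336298 on the plus strand.
Folr2: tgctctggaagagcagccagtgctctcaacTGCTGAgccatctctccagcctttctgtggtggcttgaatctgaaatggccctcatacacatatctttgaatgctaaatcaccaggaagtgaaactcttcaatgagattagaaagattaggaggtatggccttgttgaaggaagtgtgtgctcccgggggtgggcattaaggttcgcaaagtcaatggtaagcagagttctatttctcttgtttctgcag
Vsig4: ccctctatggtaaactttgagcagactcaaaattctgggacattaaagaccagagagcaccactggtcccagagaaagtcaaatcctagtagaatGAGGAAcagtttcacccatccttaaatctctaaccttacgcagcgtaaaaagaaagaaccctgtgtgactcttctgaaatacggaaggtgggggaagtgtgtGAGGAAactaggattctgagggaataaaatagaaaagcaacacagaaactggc
Aqp1: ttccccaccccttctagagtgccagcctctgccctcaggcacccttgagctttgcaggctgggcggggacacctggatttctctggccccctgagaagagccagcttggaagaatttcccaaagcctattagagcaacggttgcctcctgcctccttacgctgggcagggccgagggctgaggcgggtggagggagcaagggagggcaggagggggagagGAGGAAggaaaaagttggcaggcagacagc
Cbr2: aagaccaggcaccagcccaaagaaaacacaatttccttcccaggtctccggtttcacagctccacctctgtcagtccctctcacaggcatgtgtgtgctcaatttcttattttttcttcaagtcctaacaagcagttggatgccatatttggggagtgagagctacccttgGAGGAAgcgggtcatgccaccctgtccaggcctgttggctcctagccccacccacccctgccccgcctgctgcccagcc
GAGGAA was found at -155 and -53 from the start site of Vsig4, at -30 in Aqp1 and at -79 in Cbr2, and 23.3% of 32851 promoter stretches of this length hold it on either strand. TGCTGA was found at -220 in the Folr2 stretch shown and at -19 in a second Folr2 promoter (chr7:101845332-101845581, not shown), and 16.1% of all stretches hold it. Promoter stretches were at hand for 5 of the 8 genes only. Lyve1, Fxyd2 and Maf had none and were not searched. In the 3 stretches of Sepp1 the reverse complement of GAGGAA occurred at -179 in the first and -223 in the second. TATAAA (held by 12.4% of all stretches) occurred at -10 in the third. Such matches describe the letters only and are common in any promoter set.

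The table held 32953 cells, with 2919 to 9345 cells and a median of 9923 to 14001 unique molecular identifiers (UMIs) per cell in the libraries. A cell was called a macrophage when it held UMIs of at least 6 of 8 markers, among them Csf1r, Adgre1, C1qa, C1qb, C1qc, Ms4a7 and Apoe and none of them a studied gene, and passed no gate of another cell type except that of monocytes. This gate took 3023 cells (9.17% of all cells), 231 to 745 per library, with a median of 14461 UMIs. Csf1r, the receptor for macrophage colony-stimulating factor, stood at 694 counts per 1000000 UMIs (CPM) in these cells and at 129.9 in all others, and C1qb at 2463 CPM. A further 1961 cells passed both the macrophage and the neutrophil gates, had a median of 25010 UMIs and were set aside. In all, 138 barcode sequences occurred in more than 1 library (0.838% of cells), of which 1 was held by 2 macrophage-gated cells. Levels of different genes are not compared, since 3′ tags are counted with a different efficiency for each gene.

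All 8 genes had their highest level in the macrophage-gated cells among the 12 classes of at least 50 cells. These classes leave out the set-aside cells and cells that passed several gates or none. They also leave out the few basophil, erythroid and endothelial cells. In these small classes Lyve1 (endothelial) and Aqp1 (erythroid and endothelial) stood above the macrophages. The macrophage-gated cells held 56.0% of all UMIs of the 8 genes in the table. For 7 of the 8 the lowest macrophage library lay above the highest library of every other of the 12 classes, Aqp1 being the exception. Within the 12 classes, the genes fell into those that were near 0 outside macrophages and those shared with other cells. In the 2002 cells that passed no gate, Lyve1 stood at 61.8 CPM, Folr2 at 24.7, Vsig4 at 14.5, Fxyd2 at 160.6, Aqp1 at 99.7 and Cbr2 at 17.1.

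Among the receptors, Lyve1 stood at 644 CPM in macrophage-gated cells (lowest library 178.7, median 596, highest 1122) and was detected in 44.3% of them (1338 cells, 95% Wilson interval 42.5 to 46.0, which like all intervals here covers counting error only). The next class, neutrophils, stood at 4.96 CPM, a macrophage level 129.9-fold higher, and no Lyve1 UMI was found in 551 stem and progenitor cells, which allows a share of cells with a UMI of up to 0.545% and sets no limit on cells that express the gene. Lyve1 is also made by lymphatic vessel cells, but only 6 cells of the table passed the endothelial gate. Lyve1 was found in 2 of these 6 cells, which together stood at 1385 CPM. Folr2 stood at 271 CPM (160.8, 273.0 and 339 in the lowest, median and highest library) and in 62.0% of macrophage-gated cells, against 1.74 CPM in neutrophils and 1.61 in monocytes. Vsig4 was found in the smallest share of cells, 18.1% (interval 16.7 to 19.5), at 202 CPM (98.99, 175.4 and 282). The next class for Vsig4 was T cells at 2.08 CPM, from 22 UMIs in 3 cells, and monocytes stood at 0.0757 CPM with 4 UMIs in 3173 cells.

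Of the transport genes, Fxyd2 stood at 667 CPM (254.7, 629.5 and 1159) and in 54.3% of macrophage-gated cells. Dendritic cells came next at 12.6 CPM (5.13 to 30.5), with Fxyd2 in 7.21% of them against 0.36% of B cells. Aqp1 stood at 374 CPM (114.2, 370.5 and 703) and in 41.5% of macrophage-gated cells. Its order differed from the rest, since the 97 fibroblast-gated cells held 105 CPM, and their 2 libraries with at least 20 cells (65.0 and 139.3) overlapped the macrophage libraries. Stem and progenitor cells followed at 29.9 CPM (5.42 to 44.6), with Aqp1 in 18.0% of cells (interval 15.0 to 21.4). In classes of fewer than 50 cells, Aqp1 stood at 749 CPM in 18 erythroid cells and at 660 CPM in 6 endothelial cells.

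Cbr2, the reductase, stood at 173.7 CPM (122.0, 155.2 and 238.5), in 55.5% of macrophage-gated cells and 36.7-fold above monocytes (4.73 CPM). Sepp1 was detected in nearly every macrophage-gated cell (93.1%, interval 92.1 to 93.9), at 1397 CPM (957, 1370 and 1639). Fibroblasts stood at 356 CPM (213.9 to 482), a macrophage level 3.92-fold higher, and monocytes at 133.4 CPM (118.7 to 174.2), 10.5-fold below the macrophages. Maf was found in 84.8% of macrophage-gated cells at 444 CPM (298, 463 and 479) and was shared with lymphocytes. T cells stood at 199.0 CPM (118.4 to 277.6) with Maf in 46.5% of cells, innate lymphoid cells at 150.4 CPM and monocytes at 48.9 CPM, whereas dendritic cells stood at 1.69 CPM and neutrophils at 4.97 CPM. Maf was thus within 2.23-fold of the macrophages in T cells. Among the 12 classes this was the nearest approach of any other class to the macrophage level for the 8 genes.

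**Figure D1:**
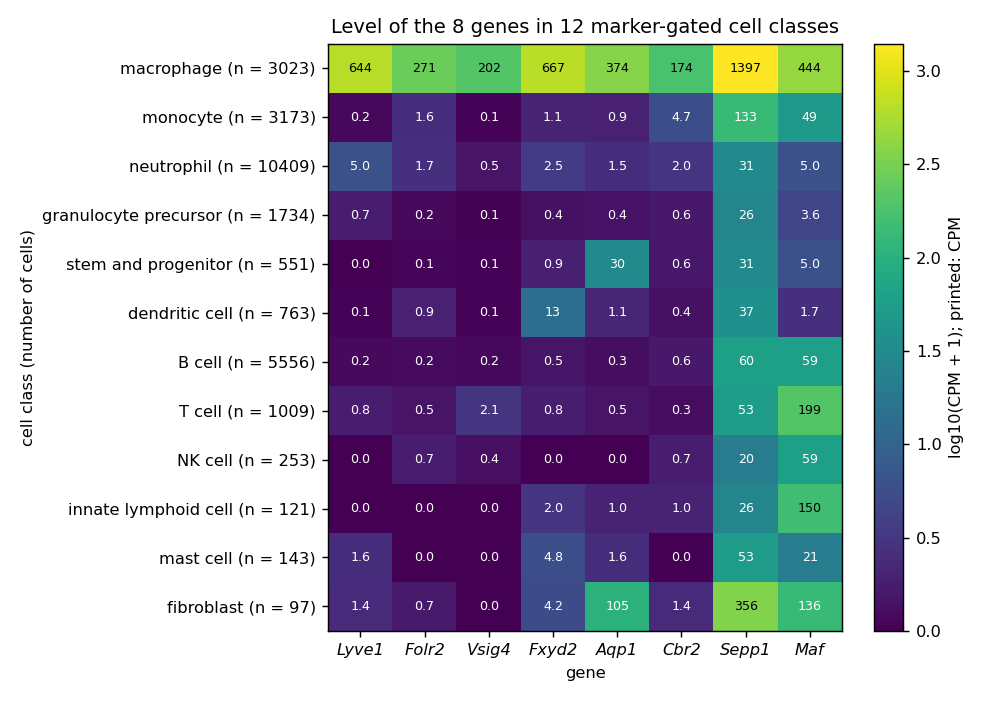
Heat map of the 8 genes (columns) in the 12 classes of at least 50 cells (rows), pooled over libraries, coloured by log10(CPM + 1) and with the CPM printed in each field. Macrophage-gated cells are highest for every gene, from 156.2-fold above neutrophils for Folr2 to 2.23-fold above T cells for Maf.

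Free RNA can give UMIs in cells that do not express a gene, and the authors subtracted it before deposit, so the low levels were set against each other within classes. Of all stored entries, 1724738 of 102584772 were 0, and how these zeros arose was not tested. For Lyve1, 70.0% of the entries in monocytes were zeros (21 zeros against 9 cells above 0) and 83.3% of those in B cells (20 against 4). In neutrophils 14.7% were zeros (64 against 372). For the 8 genes in macrophage-gated cells the share was 0.311 to 1.62%. The ratio of Lyve1 to Folr2 was 2.37 in macrophage-gated cells and 2.86 in neutrophils, and that of Aqp1 to Folr2 1.38 and 0.892. In the same 2 classes the ratio to Folr2 was 0.745 and 0.263 for Vsig4 and 2.46 and 1.43 for Fxyd2. It was 0.64 and 1.13 for Cbr2 and 1.64 and 2.86 for Maf. Sepp1 was 5.15 times Folr2 in macrophage-gated cells, 17.9 times in neutrophils and 248 times in B cells, where Sepp1 stood at 60.1 CPM. In monocytes the ratio of Lyve1 to Folr2 was 0.106. What these ratios reflect was not tested. With each cell thinned to 3000 UMIs, Lyve1 was found in 38.9% of macrophage-gated cells, 1.14% of neutrophils and 0.0372% of B cells, and Maf in 58.4% of macrophage-gated cells, 33.5% of T cells and 1.007% of neutrophils. The 1961 set-aside cells with macrophage and neutrophil markers stood between the macrophages and neutrophils, at 136.3 CPM of Lyve1, 116.2 of Folr2 and 94.5 of Fxyd2.

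The level in macrophage-gated cells varied between libraries, and by unequal amounts for the 8 genes. Lyve1 stood at 748, 178.7, 440, 659, 1122 and 534 CPM in libraries 1 to 6, a 6.28-fold range, and in 47.0, 13.9, 29.8, 49.4, 65.1 and 40.2% of cells. Aqp1 stood at 438, 114.2, 237, 320, 703 and 421 CPM, a 6.15-fold range, and Fxyd2 at 912, 254.7, 344, 576, 1159 and 683 CPM, a 4.55-fold range. Library 2 was the lowest and library 5 the highest for all of Lyve1, Aqp1 and Fxyd2. Vsig4 followed with a 2.84-fold range and Folr2 with 2.11-fold. Cbr2 (1.96-fold), Sepp1 (1.71-fold, from 957 to 1639 CPM) and Maf (1.61-fold) varied least. Library 2 was the lowest for 7 of the 8 genes, library 3 being the lowest for Cbr2. Library 2 also held the fewest macrophage-gated cells (231, or 3.98% of the library). In library 2 more cells were set aside for neutrophil markers (264) than were kept, with 264 to 426 set aside per library. Because the treatment of each library is unknown, a difference between treatments and one between libraries cannot be told apart here.

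**Figure D2:**
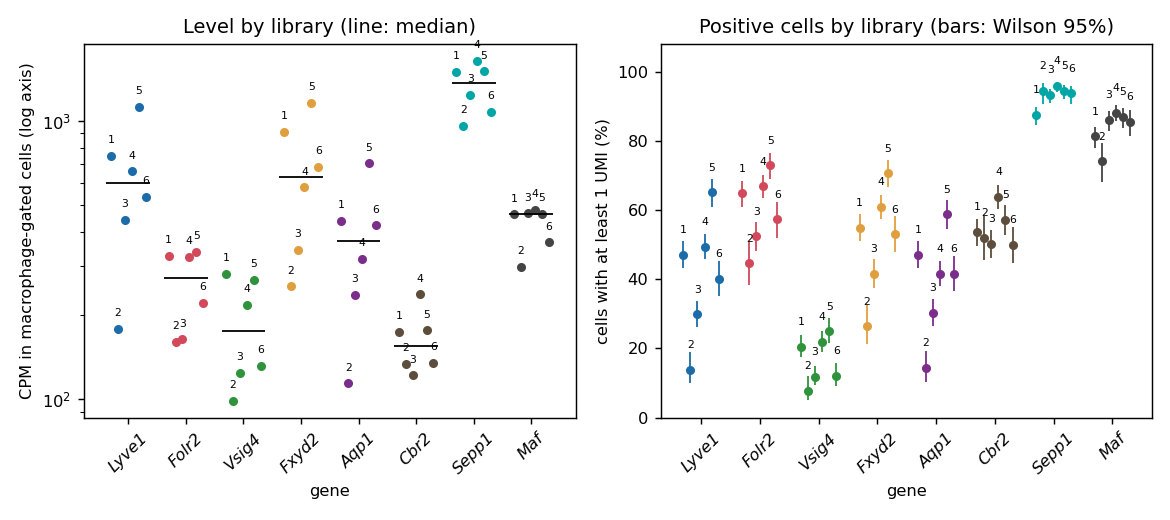
Level (left, CPM on a log axis, with a line at the median library) and percentage of positive cells (right, bars are Wilson 95% intervals) of each gene in macrophage-gated cells, each point 1 of the 6 libraries and numbered by it. By level, Lyve1 and Aqp1 spread over 6.28-fold and 6.15-fold, Sepp1 and Maf over 1.71-fold and 1.61-fold, and library 2 is lowest for 7 of the 8.

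The macrophage-gated cells differed in how many of the 8 genes they held. From 0 to 8 genes per cell, the numbers of cells were 62, 261, 479, 420, 327, 214, 326, 576 and 358. The counts thus had a peak at 2 genes and another at 7, with the trough at 5. At 3000 UMIs per cell the same 2 peaks stood at 1 gene (521 cells) and 6 genes (418 cells), with the trough at 4 (254 cells). At least 5 of the genes were found in 1474 macrophage-gated cells (48.8%), from 19.9% in library 2 to 68.0% in library 5. In each of the other classes among these 12 at most 0.231% of the cells held 5 or more, 24 cells in neutrophils and 5 in monocytes. Outside these classes the share was 33.8% of the 1961 set-aside cells with neutrophil markers, 5.32% of the 1221 cells that passed several gates and 4.75% of the 2002 cells that passed none.

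The genes were found in the same cells more often than their shares predict. As genes chosen for a shared pattern in these same libraries, they carry no test here either. With cells thinned to 3000 UMIs and the expected count formed within each library, Lyve1 and Folr2 were found together 1.71 times the expected number (1.38 to 2.74 in the libraries), Lyve1 and Fxyd2 1.78 times (1.41 to 4.86), Lyve1 and Aqp1 1.94 times (1.48 to 5.38) and Lyve1 and Vsig4 2.11 times (1.6 to 5.58). Sepp1 and Maf were together at 1.13 times the expected number. Both were found in most cells, and the ratio of such genes cannot go far above 1, so it does not rank pairs. Pearson's r was taken over the 3023 cells, which share libraries and depth and are not replicates. It was 0.81 for Fxyd2 with Aqp1, 0.75 for Lyve1 with Aqp1 and 0.72 for Lyve1 with Folr2. Sepp1 with Maf gave 0.56 and Lyve1 with Vsig4 gave 0.50. Cbr2 was less tied to the transport genes (0.28 with Fxyd2 and 0.22 with Aqp1) than to Folr2 (0.62), and Vsig4 with Fxyd2 gave 0.24.

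Detection of some genes was nested in that of others, and for the pairs of Lyve1 with Folr2 and Fxyd2 this depended on depth. Without thinning, of the 546 cells with Vsig4, 514 (94.1%) had Lyve1, whereas 38.4% of the cells with Lyve1 had Vsig4. Of the 1338 cells with Lyve1, 1265 (94.5%) had Folr2 and 1247 (93.2%) had Fxyd2, while 67.5% of cells with Folr2 and 76.0% of cells with Fxyd2 had Lyve1. Likewise 1168 of 1255 cells with Aqp1 (93.1%) had Fxyd2. At 3000 UMIs per cell 90.8% of cells with Vsig4 had Lyve1, against 33.4% of cells with Lyve1 that had Vsig4. The other pairs were then nearly symmetric: 76.2% of cells with Lyve1 had Folr2 against 71.1% the other way, and 78.0% had Fxyd2 against 76.4%. Of cells with Aqp1, 83.2% had Fxyd2, against 71.5% of cells with Fxyd2 that had Aqp1.

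**Figure D3:**
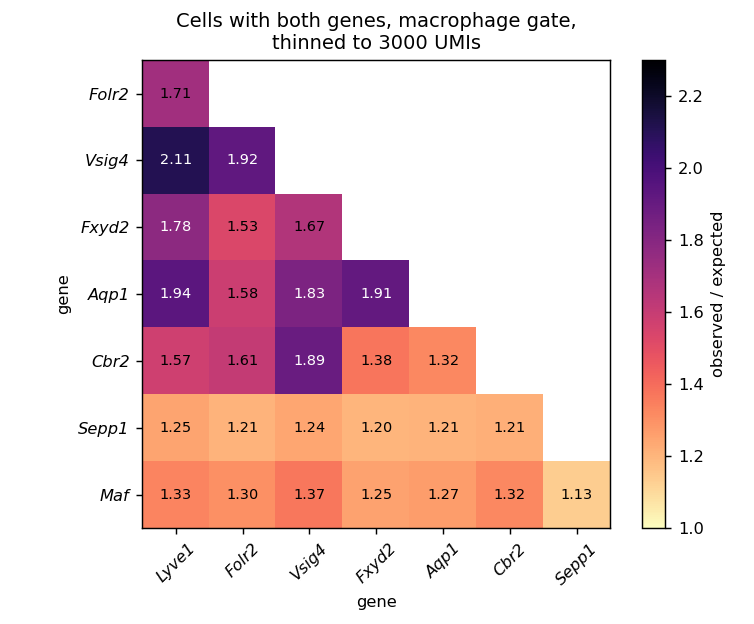
Heat map of the observed over the expected number of macrophage-gated cells that hold both genes of a pair (rows and columns), with 2950 cells thinned to 3000 UMIs each and expectations formed within libraries. Values lie above 1 for the pairs of receptors and transport genes (1.71 for Lyve1 with Folr2, 2.11 for Lyve1 with Vsig4). The value was 1.13 for Sepp1 with Maf, which are found in most cells and so cannot go far above 1. The genes were chosen for a shared pattern in these libraries, and the values carry no test.

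How the 8 genes stood to the monocyte program was read by counting, in each macrophage-gated cell, the UMI-positive markers among the monocyte genes Ly6c2, Ccr2, Plac8, Vcan, Fn1 and Ace. There were 729, 509, 625, 473 and 348 cells with 0, 1, 2, 3 and 4 of them, and 339 with 5 or 6. The median UMI count ran from 10454 in cells with none to 19741 in cells with 5 or 6, and CPM corrects for this but detection does not. Lyve1 stood at 1548, 1110, 889, 158.1, 75.7 and 32.1 CPM over these 6 steps, a 48.3-fold difference between the ends. Aqp1 differed by 36.9-fold (961 against 26.0 CPM), Fxyd2 by 33.8-fold (1632 against 48.4), Folr2 by 11.5-fold (564 against 49.0), Sepp1 by 8.02-fold, Cbr2 by 6.18-fold and Maf by 3.74-fold (823 against 219.9). Lyve1, Folr2, Fxyd2, Aqp1, Sepp1 and Maf were lower at each of the 5 steps, and Cbr2 at 4 of them.

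Vsig4 had another course. It stood at 135.4, 217, 644, 74.9, 23.3 and 0.657 CPM, so that its highest level was in the cells with 2 monocyte markers. Fn1 (fibronectin) was found in 57.0% and Vcan (versican) in 45.7% of the cells with Lyve1 and Vsig4, against 33.9% and 15.2% of the cells with Lyve1 only. Ccr2, the chemokine receptor of blood monocytes, was found in 7.20% and 22.7% of the same cells. With Ly6c2, Ccr2 and Plac8 alone, a choice made after these values were seen, Vsig4 was lower at each step, at 547, 75.2, 23.8 and 1.87 CPM in cells with 0, 1, 2 and 3 of them. Lyve1 then stood at 1668, 269.8, 122.2 and 41.5 CPM and Maf at 738, 356, 306.5 and 249.6 CPM.

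**Figure D4:**
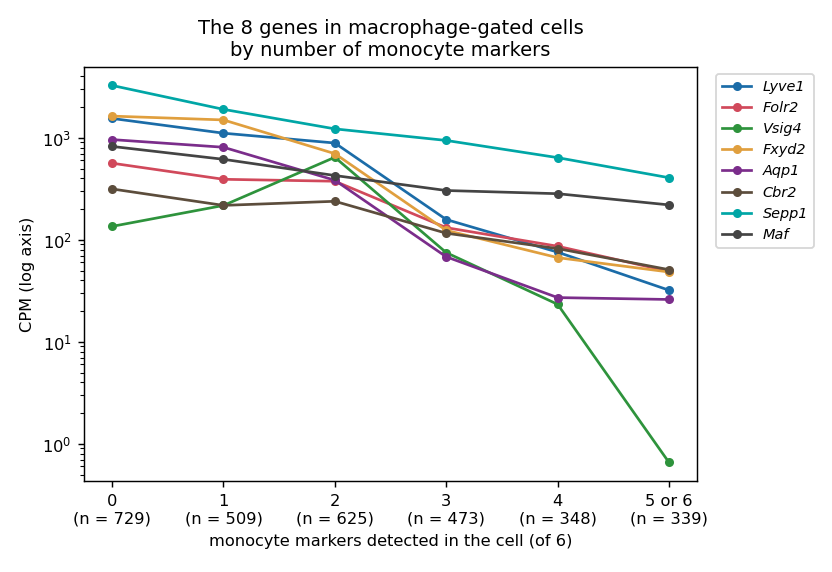
Level of each gene (CPM, log scale) in macrophage-gated cells with 0, 1, 2, 3, 4 and 5 or 6 of the 6 monocyte markers. Lyve1 goes from 1548 to 32.1 CPM and Maf from 823 to 219.9 CPM, while Vsig4 peaks at 644 CPM in cells with 2 markers.

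The libraries differed in these cells as well. Cells with 0 to 2 monocyte markers made up 43.8 to 75.2% of the macrophage-gated cells of a library, with library 3 lowest and library 5 highest. Within them Lyve1 was found in 22.5% of cells in library 2 against 59.1 to 82.1% in the other libraries, and Aqp1 in 21.7% against up to 74.0%. Sepp1 was found in 94.2 to 98.4% of such cells in every library. Library 2 had the lowest share of Lyve1-positive cells both among all macrophage-gated cells and among those with 0 to 2 monocyte markers. Over all libraries Lyve1 was found in 82.4, 62.9 and 49.6% of cells with 0, 1 and 2 markers. The mix of these cells was not held equal between libraries. Whether monocyte markers account for the low share in library 2 was not tested.

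Cells with and without Lyve1 were then compared across all genes, by pooled CPM and with no test. Genes with at least 10 CPM in macrophage-gated cells entered, 7841 in all and all 8 studied genes among them. Of these genes 610 (7.78%) were at least 2-fold higher and 498 (6.35%) at least 2-fold lower in the 1338 cells with Lyve1 than in the 1685 cells without, and the median ratio was 1.05. With the cells set aside for neutrophil markers included, the genes at least 2-fold lower numbered 227. The other studied genes were higher in cells with Lyve1 in 6 of 6 libraries, and as genes chosen for a shared pattern they carry no test. Vsig4 stood at 510.5 against 10.5 CPM (48.5-fold), Aqp1 at 924 against 32.6 (28.3-fold) and Fxyd2 at 1594 against 91.6 (17.4-fold). Folr2 was 6.79-fold, Cbr2 3.95-fold, Sepp1 3.35-fold and Maf 2.75-fold higher. The cells with Lyve1 were the shallower ones, with median UMI counts of 13027 where Vsig4 was found and 12026 where it was not, against 15957.5 and 16700 in cells without Lyve1 that did or did not hold Fxyd2.

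Other genes of resident macrophages went with Lyve1. Of 19 such genes outside the 8, 15 were at least 2-fold higher and 1 at least 2-fold lower, with a median ratio of 4.34. Like all gene lists here, this one was chosen with earlier results of these data known, so its counts are a description. Timd4, a receptor for phosphatidylserine on dying cells, stood at 81.0 against 3.31 CPM (24.4-fold). Cd163, the haemoglobin scavenger receptor, was 15.7-fold higher, Ltc4s, the enzyme that makes leukotriene C4, 13.8-fold and Gas6, the bridge between dying cells and Mertk, 12.1-fold. Slc40a1, the iron exporter, was 2.21-fold lower, but in 4 of 6 libraries only, and was detected in 4.10% of macrophage-gated cells. Of 6 tested genes of lining macrophages 2 were at least 2-fold higher, Sparc (284.6 against 11.9 CPM, 23.9-fold) and Cd9 (2.98-fold). None was at least 2-fold lower. By less than 2-fold, Mertk (1.92-fold), Trem2 (1.48-fold) and Cx3cr1 (1.10-fold) were higher and Axl (1.74-fold) was lower.

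Antigen presentation and inflammatory genes went the other way. Of 6 genes of interstitial macrophages 4 were at least 2-fold lower in cells with Lyve1. These were the MHC class II genes H2-Eb1 (6.34-fold), H2-Ab1 (5.71-fold) and H2-Aa (5.62-fold) and the invariant chain Cd74 (1500 against 7876 CPM, 5.25-fold), all in 6 of 6 libraries. The remaining genes of the same list were higher, Retnla 2.49-fold in 6 of 6 libraries and Mgl2 1.43-fold in 5 of 6. Of 11 inflammatory macrophage genes 10 were at least 2-fold lower, among them Arg1 (17.3 against 212.6 CPM, 12.3-fold), Cxcl10 (11.9-fold) and Spp1 (7.47-fold). Tnf was the exception at 258 against 91.3 CPM, 2.83-fold higher and in 6 of 6 libraries. Of 8 monocyte genes 6 were at least 2-fold lower, with Ly6c2 9.62-fold and Ccr2 5.23-fold. Vcan (1.64-fold) and Fn1 (1.6-fold) were lower by less than 2-fold, in 5 and 4 of 6 libraries. In that list 5 genes are also markers of the monocyte gate.

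Of 14 macrophage transcription factors tested, 3 were at least 2-fold higher in cells with Lyve1. Egr2 stood at 135.2 against 40.2 CPM (3.36-fold), Irf4 was 2.91-fold and Klf2 2.35-fold higher. Runx3 (16.3 against 126.1 CPM, 7.72-fold) and Nr1h3, the liver X receptor alpha (2.97-fold), were lower. Mafg, a small relative of Maf, stood at 97.7 against 66.2 CPM and did not pass 2-fold. Of 5 cell cycle genes 2 were tested and neither passed 2-fold.

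**Figure D5:**
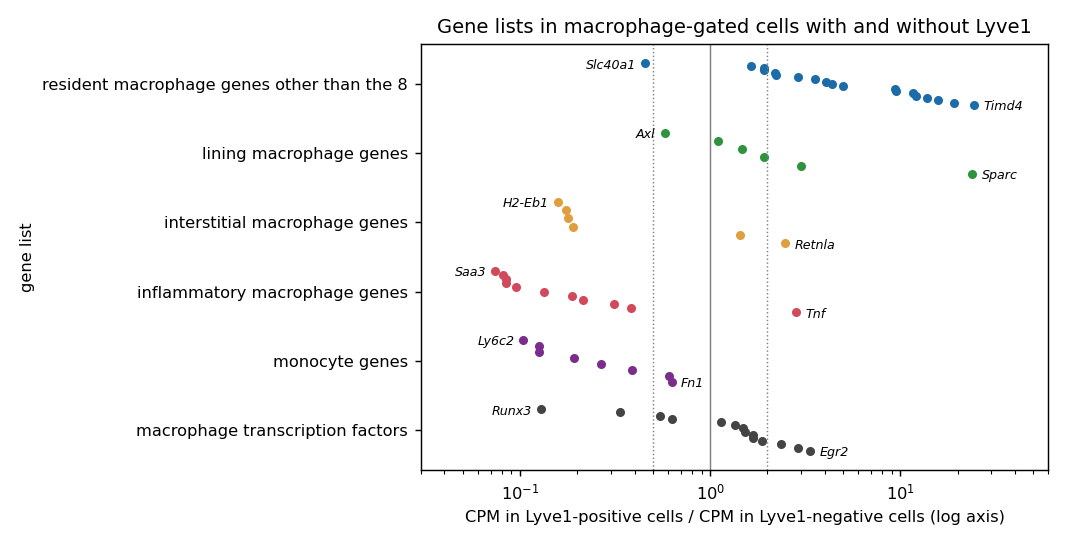
Pooled CPM in macrophage-gated cells with Lyve1 over that in cells without (log axis), each point 1 tested gene and each line of points 1 gene list, with dotted lines at 2-fold and the outermost genes named. Resident genes lie mostly above 1 (median 4.34), and the medians of interstitial (0.184) and inflammatory genes (0.134) lie below 1. Retnla and Mgl2 of the interstitial list and Tnf of the inflammatory list lie above 1.

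Markers of other cell types were summed in the same groups. Neutrophil markers summed to 450.0 CPM in cells with Lyve1 and to 905 CPM in cells without, and monocyte markers to 1261 and 3358 CPM. Endothelial markers summed to 11.8 CPM (6.13 to 14.5 in the libraries) in cells with Lyve1 and to 28.3 CPM without. No single endothelial marker reached 10 CPM with Lyve1. Among them Pecam1 stood at 3.055 and 17.6 CPM, Kdr at 0.444 and 5.28 CPM, and Prox1 at 1.72 and 0 CPM. Innate lymphoid markers summed to 89.2 and 33.4 CPM, largely from Rora (81.8 and 31.1). Basophil markers summed to 243.5 and 88.9 CPM, largely from Ccl3 (243 and 88.8). Fibroblast markers summed to 8.61 and 3.76 CPM, dendritic cell markers to 58.9 and 26.2 CPM, T cell markers to 1.05 and 1.38 CPM and B cell markers to 6.67 and 8.66 CPM. Their part in the differences above was not tested.

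Within the 1338 cells with Lyve1, Vsig4 separated 514 cells (17.0% of the macrophage-gated cells, 6.49 to 24.0% in the libraries) from 824 (27.3%, 7.36 to 41.1%). Fewer genes differed, with 59 (0.752%) at least 2-fold higher and 112 (1.43%) at least 2-fold lower with Vsig4. The other studied genes moved by less than 2-fold: Folr2 was 1.47-fold and Cbr2 1.44-fold higher with Vsig4, the former in 6 of 6 libraries, and Fxyd2 stood at 1247 CPM with and 1817 without Vsig4, lower in 6 of 6 libraries. Sepp1 (1.05-fold) and Maf (1.17-fold) were higher in 3 and 4 of the 6 libraries.

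Of the 6 tested lining genes 2 were at least 2-fold higher with Vsig4 and none lower, with a median ratio of 1.64. Sparc stood at 569 against 101.6 CPM (5.6-fold) and Cx3cr1, the fractalkine receptor, at 206 against 68.4 CPM (3.02-fold), both in 6 of 6 libraries. Trem2, the lipid receptor, stood at 566 against 358 CPM and did not pass 2-fold. Of the 6 interstitial genes 4 were at least 2-fold lower, Retnla (184 against 589.5 CPM, 3.20-fold), the lectin Mgl2 (2.85-fold), Cd74 (2.21-fold) and H2-Aa (2.02-fold), and none higher. Of the 19 resident genes, Ltc4s (2.36-fold) and Timd4 (2.02-fold) were at least 2-fold higher and the lectins Cd209f (2.92-fold) and Cd209d (3.13-fold) at least 2-fold lower. Among monocyte genes Vcan (162.7 against 57.3 CPM, 2.84-fold) and Fn1 (2.47-fold) were higher with Vsig4 and 5 of the 8 were at least 2-fold lower. Among 11 inflammatory genes 3 were at least 2-fold lower and none at least 2-fold higher.

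In the 1685 cells without Lyve1, 394 (13.03% of the macrophage-gated cells, 10.2 to 16.4% in the libraries) held Fxyd2 and 1291 (42.7%, 24.4 to 71.9%) did not. The share of cells with Fxyd2 but no Lyve1 had a narrower range between libraries than that of cells with neither. Here 243 genes (3.1%) were at least 2-fold higher with Fxyd2 and 67 (0.854%) at least 2-fold lower. Aqp1 stood at 126.9 against 5.25 CPM (24.2-fold) and Vsig4 at 40.6 against 1.78 CPM (22.8-fold), both in 6 of 6 libraries. The Vsig4 values rest on few cells, since 514 of the 546 macrophage-gated cells with Vsig4 also held Lyve1. Folr2 (2.12-fold), Cbr2 (2.13-fold), Sepp1 (1.64-fold) and Maf (1.23-fold) differed less. Of the 19 resident genes 13 were at least 2-fold higher and none lower, with a median ratio of 2.87. Cd163, of this list, stood at 99.7 against 9.39 CPM. Of the 6 tested lining genes 1 was at least 2-fold higher, Sparc at 47.6 against 1.56 CPM, and the median ratio was 1.35.

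The MHC class II genes did not follow in this comparison. H2-Aa stood at 3303 CPM in cells with Fxyd2 and no Lyve1 and at 3289 CPM in cells with neither, against 586 CPM in cells with Lyve1. Ccr2 likewise stood at 472 and 557 CPM and was found in 68.5 and 86.5% of the cells, whereas Ly6c2 stood at 122.7 and 658 CPM. Retnla was 4.0-fold (413.7 against 103.4 CPM, higher in 4 of 6 libraries) and Mgl2 2.78-fold higher with Fxyd2. Of the 11 inflammatory genes 4 were at least 2-fold lower with Fxyd2, among them Spp1 (2.67-fold, higher in 0 of 6 libraries). The 1 gene at least 2-fold higher was Tnf, at 155.6 against 72.7 CPM (2.14-fold), in 6 of 6 libraries. Irf4 was the 1 transcription factor of 14 past 2-fold, at 34.4 against 11.1 CPM.

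Relatives of the studied genes were then read from lists of their families and partners. Of the folate receptors and carriers other than Folr2 none reached 10 CPM in macrophage-gated cells, the proton-coupled carrier Slc46a1 standing at 3.30 CPM and Folr1 at 0.0213 CPM. Of the FXYD family Fxyd5 alone was tested, at 949 CPM with and 1086 without Lyve1. Atp1b3, a beta subunit of the sodium pump that FXYD proteins regulate, stood at 296 against 271 CPM. None of the 4 other aquaporins in the table reached 10 CPM. Of 3 tested carbonyl reductases Cbr3 was 2.04-fold higher with Lyve1 and Cbr1 1.98-fold. None of 8 tested genes for other selenoproteins and selenoprotein P receptors passed 2-fold, among them the receptor Lrp1 at 551 CPM with Lyve1. Of 7 complement and hyaluronan receptors tested, Stab1 was 2.20-fold higher, Itgax 5.46-fold lower and the other hyaluronan receptor Cd44 1.53-fold lower with Lyve1.

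Across 9581 genes found in at least 5% of macrophage-gated cells, the 3 genes whose level per cell ran most closely with each studied gene were taken by Pearson's r over the 3023 cells, with the 8 studied genes left out of the ranking and no test. Some of the 8 ran more closely with each other than with any gene ranked, as Fxyd2 and Aqp1 (0.81) and Lyve1 and Aqp1 (0.75) did. For Lyve1 these were Gas6 (0.75, 0.64 to 0.78 in the libraries), Fgfr1, a growth factor receptor (0.72), and Timp2, an inhibitor of matrix proteases (0.70). Folr2 ran with Timp2 (0.75), Gas6 (0.73) and Rnase4 (0.67). Among the ranked genes, Fxyd2 and Aqp1 both ran first with Alox5, the 5-lipoxygenase (0.67 and 0.68), and then with Fgfr1 (0.66 for each). Vsig4 ran first with Sparc (0.67, 0.61 to 0.73 in the libraries), then with Ltc4s (0.57) and Timp2 (0.53). Cbr2 ran with Timp2 (0.58), Gas6 (0.55) and Rnase4 (0.54), and Sepp1 with Gas6 (0.70), Serinc3 (0.68) and the mannose receptor Mrc1 (0.64). Maf gave the lowest values, with Gas6 at 0.54, the ubiquitin ligase Wwp1 at 0.53 and Rnase4 at 0.50. Gas6 was among the 3 for 6 of the 8 genes, all but Vsig4 and Aqp1.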

How the data were processed

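CD45+ synovial cells of 6 samples were sequenced with a 10x 3′ kit and aligned to mm10 with Cell Ranger 7, per the labels. The authors removed ambient RNA with SoupX and doublets with DoubletFinder and filtered cells in Seurat before deposit. The deposited values are UMI counts per gene and cell, with all samples in 1 table. Library totals ran from 47273569 to 123367661 UMIs. CPM divides a gene's UMIs by all UMIs of the cells pooled. Cells were gated by markers of 15 types, with the number required set after the data were seen. Cells of every gate were pooled per class and per library with at least 20 such cells. No doublet caller was run again. The studied genes and all gene lists were chosen with earlier results of these data known. Beside the 8 genes, the genes named are those of the lists (counts with a few examples), the 3 with the highest r to each gene and the next highest class. No p-value was computed, since libraries have no known treatment. Thinning drew 3000 UMIs per cell (seed 1), leaving out shallower cells. Alternatives were other gates, 2 UMIs for a positive cell, no thinning and each library left out. Scripts used numpy 2.4.6, scipy 1.17.1 and pandas 2.3.3 and were tested on simulated data. Positions are from GENCODE on GRCm38 and promoters from RefSeq. Some genes of the lists are not reported here.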

Additional observations from a re-analysis of the deposited data

How the results depend on the processing

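No paired analysis was possible because the barcodes carry no link to a sample or its replicate number and no test was run. The alternatives with at least 5 gate markers and with neutrophil-marked cells, and those for the counts of genes, were chosen after the data were seen. The share of the 8 genes' UMIs in macrophage-gated cells (56.0%) was 45.1% with at least 7 markers, 59.1% with at least 5 and 83.5% with the neutrophil-marked cells, and 52.8 to 58.3% without 1 library. Lyve1-positive cells (44.3%) were 38.9% after thinning, 41.0% at 2 UMIs, 39.2% with 5 markers and 38.8% with neutrophil-marked cells, and 39.9 to 47.5% without 1 library. Fxyd2-positive cells (54.3%) were 39.7, 44.7, 48.7 and 47.2% under the same settings, and 50.9 to 57.1% without 1 library. Co-detection of Lyve1 with Folr2 (1.71) was 1.46 unthinned, 1.97 at 2 UMIs, 1.91 with 5 markers and 1.91 with neutrophil-marked cells, and 1.63 to 1.86 without 1 library. For Lyve1 with Fxyd2 (1.78) these were 1.61, 2.01, 1.96 and 2.11, and 1.696 to 1.98. The 610 genes higher with Lyve1 ranged from 430 to 646, and the 498 lower were 227 with neutrophil-marked cells and ranged from 454 to 540 without 1 library. The 15 resident genes higher ranged from 15 to 17 and the 10 inflammatory genes lower from 8 to 10. The causes of these shifts were not tested. Counts limit shares in classes of few cells, such as the 97 fibroblast-gated cells.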

Other observations

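The gene with the most negative r to the studied genes over the 3023 macrophage-gated cells was the same for 7 of the 8: Cd52, which encodes a small glycosylphosphatidylinositol-anchored surface glycoprotein of leukocytes. It was singled out after its values were seen. Its r was -0.69 with Lyve1 (-0.70 to -0.53 in the libraries), -0.68 with Folr2, -0.64 with Fxyd2 and -0.57 with Sepp1 (-0.65 to -0.16 in the libraries). It was -0.49 with Maf, -0.47 with Cbr2 and -0.37 with Vsig4. For Aqp1 the most negative gene was Ly6e (-0.633), also named after its values were seen, and Cd52 came next at -0.631. These are values across cells of shared libraries and carry no test.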
